A study of Mus musculus with 71 samples.

Results

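The insulin-like growth factor axis was examined here through 9 genes of the mouse genome: the ligand Igf2 and its imprinted neighbor H19, the receptors Igf1r and Igf2r, the adaptors Irs1 and Irs2, and the binding proteins Igfbp2, Igfbp4 and Igfbp5. A chromatin loop was assigned to a gene when an anchor of the loop lay within 2 kb of a GENCODE transcription start site (TSS) of that gene. Of the 9 genes, 3 had such a loop (33.3%, beside 23.9% of all genes), and together they held 17 of the 24244 loops in the list. Irs2 alone held 13 of the 17 loops, Igf1r held 3 and Irs1 held 1, while Igf2, H19, Igf2r, Igfbp2, Igfbp4 and Igfbp5 held none.

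The loops came from H3K27ac HiChIP of 2 synovial sarcomas of hSS2 mice, in which TATCre was injected in the hindlimb on day 8 of life. The hSS2 allele lies in Rosa26, and Cre removes a floxed stop so that human SS18::SSX2 is expressed. Both tumors carried the same allele and had the same initiation, so there was no control group, and any stromal cells of a dissociated tumor were assayed along with the fusion-bearing cells. HiChIP ligates DNA ends that lie near each other in fixed chromatin and then enriches the ligated pairs with an antibody, here one against H3K27ac, a histone mark of active promoters and enhancers. Each loop has a count of paired-end tags, which are read pairs joining its anchors, and a false discovery rate (FDR) from the loop caller. The authors merged the loops of both tumors into 1 list of 41574 tags, the only counts behind every value. The list holds called loops only, so read pairs outside them and the sequencing depth are not known from it. The list runs through the chromosomes in order, then starts again, so it has 2 parts, and neither part was assigned to a tumor. Part 1 held 68.9% of the tags and part 2 held 31.1%. A single tag supported 69.5% of loops in part 1 and 89.1% of those in part 2. Of marker genes for the tumor and for other cells it could hold, 4 of 5 synovial sarcoma genes had a loop, with a summed count of 46 tags of which 39 were at Sox2. None of 4 leukocyte genes had a loop, and 2 of 4 endothelial genes, 1 of 4 skeletal muscle genes and 1 of 3 erythroid genes had one, with summed counts of 4, 2 and 6 tags. The Wilson 95% intervals of all these shares, such as 37.6 to 96.4% for synovial sarcoma and 0 to 49.0% for leukocytes, included the 45.8% of protein-coding genes with a loop.

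IGF2 is a secreted growth factor that signals through the IGF1R tyrosine kinase, and the adaptors IRS1 and IRS2 carry that signal to PI3K and AKT. IGF2R binds the same ligand without signaling through a kinase and carries it to lysosomes, and the binding proteins hold IGFs in the extracellular space. Igf2 and H19 share enhancers, and a CTCF-bound imprinting control region upstream of H19 decides which of them is active on each parental chromosome. Synovial sarcomas of patients are known to express IGF2.

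The loops of the axis were largely those of Irs2 alone. The promoters of Igf1r, Irs1 and Irs2 are printed because these are the promoters that carried loops. Each sequence is the run of 250 bases before the start of the gene in the RefSeq promoter table for GRCm38.p6, read 5′ to 3′ on the strand of the gene, and none of them overlapped an exon in RefSeq or GENCODE. They lie at chr7:67952007-67952256 on the plus strand, chr1:82291440-82291689 on the minus strand and chr8:11008930-11009179 on the minus strand. Capitals mark CACGTG, the E-box core, and TGTTTTG, a core of the insulin response elements that FOXO factors bind, on either strand.
Igf1r: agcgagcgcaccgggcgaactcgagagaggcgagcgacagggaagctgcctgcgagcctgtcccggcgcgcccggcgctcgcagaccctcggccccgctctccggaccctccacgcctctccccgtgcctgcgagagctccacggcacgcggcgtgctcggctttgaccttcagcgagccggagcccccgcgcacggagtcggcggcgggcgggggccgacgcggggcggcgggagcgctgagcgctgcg
Irs1: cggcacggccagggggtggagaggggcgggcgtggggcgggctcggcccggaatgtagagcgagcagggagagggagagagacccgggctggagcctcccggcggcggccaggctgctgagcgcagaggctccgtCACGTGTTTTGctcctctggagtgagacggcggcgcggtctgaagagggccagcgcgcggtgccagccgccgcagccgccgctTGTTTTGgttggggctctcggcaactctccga
Irs2: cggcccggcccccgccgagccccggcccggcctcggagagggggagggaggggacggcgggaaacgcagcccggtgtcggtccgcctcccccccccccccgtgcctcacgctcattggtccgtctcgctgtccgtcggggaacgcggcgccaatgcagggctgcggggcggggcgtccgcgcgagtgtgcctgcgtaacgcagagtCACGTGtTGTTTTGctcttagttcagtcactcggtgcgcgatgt

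The adaptor promoters shared a short arrangement of both words. In Irs1 the CACGTG began 115 bases before the RefSeq start, and a TGTTTTG began at base 111, so that the words overlapped in the letters TG. A further TGTTTTG of Irs1 began 32 bases before the start. In Irs2 the CACGTG began 44 bases before the start and the TGTTTTG followed at base 37. The Igf1r promoter held neither word. Of 32817 distinct RefSeq promoters of the same length, 6.02% held CACGTG, 5.56% held TGTTTTG and 0.296% held both. Of the 9 genes, 8 had an entry in the table with 12 promoters in all, and those of Irs1 and Irs2 were the 2 that held both words. CACGTG was held by 4 of the 12, the others being promoters of Igf2r and Igfbp2, which had no loop. The words were searched after these sequences had been seen, and a match says nothing of whether a factor was bound.

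The share of the 9 genes with a loop was not apart from that of other genes. It was 33.3% (3 of 9, Wilson 95% interval 12.1 to 64.6), beside that 23.9% over all 55450 GENCODE genes. Among the 8 protein-coding genes it was 37.5% (interval 13.7 to 69.4), beside 45.8% of 21951 protein-coding genes. A loop of at least 4 tags was found at 1 of them, Irs2, and at 8.51% of protein-coding genes. Igf1r and Irs2, 2 of them, had loops in part 1 as well as part 2, as had 24.3% of protein-coding genes. With shares this close to the background, the counts are no result about the axis as a group, and what follows is about single genes.

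The loop score of a gene, the summed tags of its loops, spread widely among the 9 genes. Irs2 had a loop score of 19 tags (exact Poisson 95% interval 11.4 to 29.7), with 8 in part 1 and 11 in part 2. Igf1r had a loop score of 3 tags (0.619 to 8.77), with 2 in part 1 and 1 in part 2, and Irs1 had 1 tag in part 1 (0.0253 to 5.57). The intervals of Irs2 and of either other gene did not overlap, while those of Igf1r and Irs1 did. Among the 10050 looped protein-coding genes the median score was 4 tags and the 90th percentile was 20. Irs2 stood at percentile 89.1 of these genes, with 1055 above it and 72 at the same score, whereas Igf1r stood at percentile 40.6 and Irs1 at percentile 10.2. All 3 genes together had 23 tags (14.6 to 34.5). The intervals cover counting error only, since the list gives no value per tumor, and for the same reason no test between samples was possible.

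**Figure D1:**
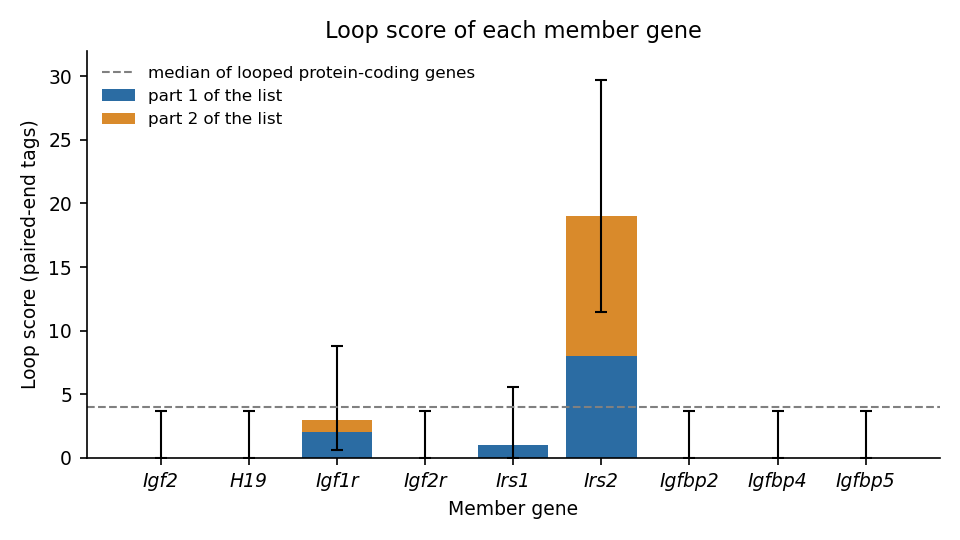
Loop score of each gene in paired-end tags, stacked by part of the list, with exact Poisson 95% intervals as error bars and the median of looped protein-coding genes as a dashed line. Irs2 reached 19 tags, above the median of 4, while Igf1r and Irs1 lay below it at 3 and 1, and the other 6 genes were at 0.

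The loops of these genes were divided between the parts much as the list was, and their tags less so. Part 2 held 8 of the 17 loops, or 47.1% (Wilson 95% interval 26.2 to 69.0), beside 43.6% of all loops. It held 12 of the 23 tags of these genes, or 52.2% (Wilson 95% interval 32.96 to 70.8), beside 31.1% of all tags, which the interval leaves outside. A single Irs2 loop gave 5 of the 12, and tags of a loop share its source. Without it, a setting chosen after the values were seen, the share was 38.9% (7 of 18, 20.3 to 61.4), which includes 31.1%. Tags per loop also differed between the parts at short spans. Among loops of about 28.2 kb the median was 10 tags in part 1 and 4 in part 2, and near 562 kb it was 1 in both. How far span bears on the share of tags was not tested. The 17 loops were as sparse as the list, with 14 of them at a single tag (82.4%, interval 59.0 to 93.8), beside 78.0% of all loops. An FDR under 0.01 was given to 2 of the 17, beside 15.2% of all loops, and an FDR under 0.001 to 0. Their spans, measured between the midpoints of the anchors, ran from 28.8 kb to 1951 kb with a median of 548.9 kb, beside a median of 500.3 kb for all loops.

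Igf2, which encodes the ligand, had a loop score of 0 over its 9 TSSs at chr7:142650766-142666816 on the minus strand. A count of 0 over called loops has a usual upper limit of 3 tags, and the 2-sided Poisson interval plotted for it ends at 3.69. Neither limit bounds the tags of contacts that were not called as loops, which are not in the list. Igf2 was also the gene nearest to the limit of the assignment, because an anchor lay 2.91 kb from its closest TSS. That anchor, chr7:142646568-142650122, ended 0.644 kb beyond the 3′ end of Igf2 and had no TSS of any gene within 2 kb. It took part in 1 loop of 1 tag in part 2 (FDR 0.0118), which reached 1525 kb to the promoter of Ptdss2, a phosphatidylserine synthase gene. With a window of 5 kb this loop was assigned to Igf2 and raised its score to 1 tag.

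H19, the noncoding RNA of the imprinted pair, also had a loop score of 0 over its 7 TSSs at chr7:142575529-142578143 on the minus strand. The outermost TSSs of Igf2 and H19 were 88.7 kb apart, and the anchor beyond the 3′ end of Igf2 was the closest to both, at 68.4 kb from H19. Neither gene thus had a called loop in the list. Loops did span the locus, with 4 passing over the Igf2 promoters and 5 over those of H19, each of a single tag. Between 2 and 5 kb upstream of H19, where the imprinting control region is known to lie, a relaxed form of the core consensus of CTCF matched 3 times on either strand, but no anchor reached that stretch.

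Of the receptor genes, Igf1r had loops and Igf2r had none, but their counting intervals overlapped (0.619 to 8.77 and 0 to 3.69 tags). The 3 loops of Igf1r (chr7:67952827-68233668, plus strand) left its first TSS and had a single tag each. In part 1 they reached 1112 kb upstream to Adamts17, a secreted metalloprotease gene (FDR 0.0262), and 797 kb downstream to Arrdc4, an arrestin-family gene (FDR 0.0266). In part 2 the loop reached 307.5 kb upstream to the shared promoter anchor of Lrrc28 and Ttc23 (FDR 0.0126). All 3 distal anchors of Igf1r thus lay at promoters, and no partner was seen in both parts. The Igf1r anchor held the CTCF consensus once in either part, as did 15.05% of all anchors. Its ratio of observed to expected CpG was 0.892 in part 1, at percentile 98.6 of all anchors. Igf2r, the clearance receptor gene at chr17:12682406-12769664 on the minus strand, had 0 tags, and its closest anchor was 145 kb away at the promoters of Tcp1, Mrpl18 and Gm26130.

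Irs1, the adaptor gene at chr1:82233101-82291416 on the minus strand, had a single loop of 1 tag (FDR 0.0262). It ran 1951 kb downstream in part 1 to the promoter of Cul3, which encodes a scaffold of ubiquitin ligases, and it had the longest span of the 17. The Irs1 anchor was narrow, at 1.56 kb (percentile 5.31 of all anchors). It was also the sole anchor within 500 kb of the gene, where protein-coding genes had a median of 10, and no loop passed over it. The loop is outside a limit of 1 Mb on span, which leaves Irs1 without any.

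Irs2 (chr8:10984681-11008458, minus strand) was the one member with many loops, and its partners were spread over both sides of the gene. Of its 13 loops, 10 had 1 tag, 2 had 2 tags and 1 had 5 tags. The promoter anchor spanned chr8:11006377-11011026 in part 1 and chr8:11003722-11011026 in part 2, widths of 4.65 and 7.31 kb that stood at percentiles 95.2 and 99.7 of all anchors. It also lay at a TSS of 9530052E02Rik, so its tags cannot be divided between these neighbors. Upstream of Irs2 there were 9 loops with 11 tags, 6 from part 1 and 3 from part 2. Downstream there were 4 loops with 8 tags, and all 4 were from part 2.

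**Figure D2:**
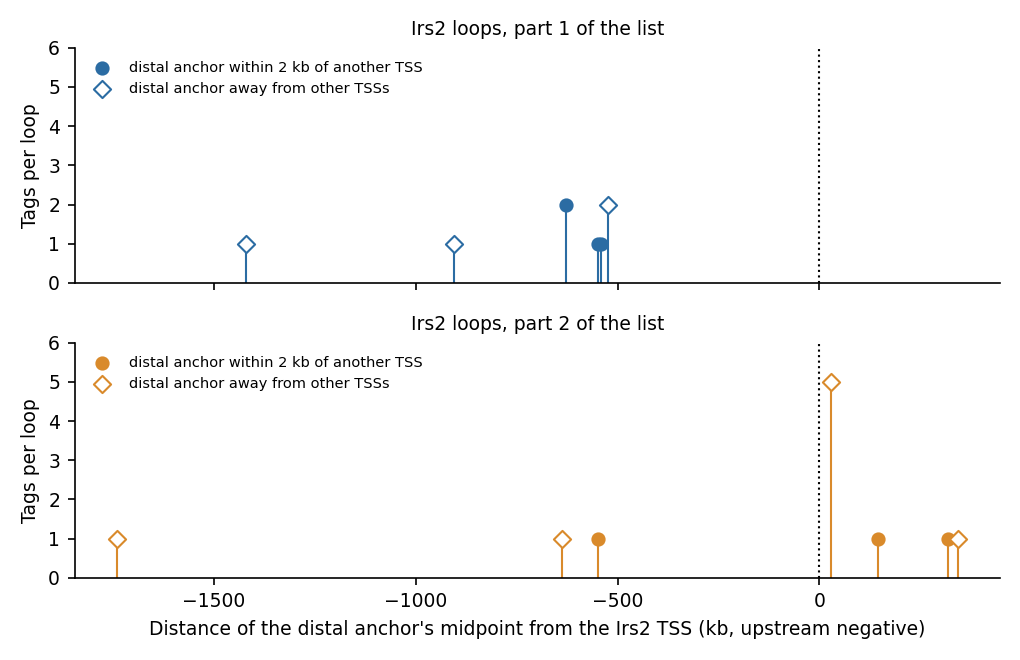
Tags of each Irs2 loop against the distance of the midpoint of its distal anchor from the Irs2 TSS, in kb with upstream negative, for part 1 (top) and part 2 (bottom). All 6 loops of part 1 lie upstream, while part 2 has 4 loops downstream, among them the loop of 5 tags at 29.9 kb, and filled circles mark distal anchors within 2 kb of another TSS.

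The loop with the most tags was the shortest. It joined the Irs2 promoter to chr8:10977332-10979771 over 28.8 kb in part 2 (5 tags, FDR 0.0118). This distal anchor lay 4.91 kb beyond the 3′ end of Irs2, outside every annotated gene body, and 6.52 kb from the closest TSS, that of Gm44956. It had 2 further loops of 1 tag each, one to the promoter of Gm32540 at 115 kb and one to an anchor without a TSS at 748 kb. Among the 60 loops of part 2 with a span from 0.75 to 1.33 times as long, the median was 4 tags and 38.3% had at least 5, so its count was common for its distance.

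The loops with an FDR under 0.01 were both of 2 tags, both in part 1 and both upstream. One ran 524 kb (FDR 0.00176) to chr8:11530673-11534914 within the body of Cars2, the gene of the mitochondrial cysteinyl-tRNA synthetase, 10.3 kb from its closest TSS. No other loop in the list used that anchor. The other ran 627 kb (FDR 0.00103) to chr8:11633845-11638059 at the promoters of Ankrd10, Gm45592 and Mir7238. Of the loops of part 1 with like spans, 18.8% and 16.03% had at least 2 tags. Both FDRs were below that of the loop of 5 tags, but that loop lay in part 2, and FDRs may not compare between parts. Within part 2, Irs2 loops of 1 tag over 549, 639 and 1742 kb had the same FDR of 0.0118 as the loop of 5 tags.

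The middle 300 bases are printed for the 2 of these 3 strongest distal anchors that lay away from promoters. Whether these stretches act on Irs2 was not tested. They are taken from the plus strand of GRCm38.p6 at chr8:10978402-10978701 and chr8:11532644-11532943, overlap no exon in RefSeq or GENCODE, and carry in capitals the GATC sites at which MboI cut the chromatin.
Irs2 distal anchor of 5 tags: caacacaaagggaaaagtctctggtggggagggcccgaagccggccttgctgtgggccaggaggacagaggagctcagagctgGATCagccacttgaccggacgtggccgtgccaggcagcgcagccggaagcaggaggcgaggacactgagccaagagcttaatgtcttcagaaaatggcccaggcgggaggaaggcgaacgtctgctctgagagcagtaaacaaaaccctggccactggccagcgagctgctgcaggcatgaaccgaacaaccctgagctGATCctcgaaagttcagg
Irs2 distal anchor of 2 tags: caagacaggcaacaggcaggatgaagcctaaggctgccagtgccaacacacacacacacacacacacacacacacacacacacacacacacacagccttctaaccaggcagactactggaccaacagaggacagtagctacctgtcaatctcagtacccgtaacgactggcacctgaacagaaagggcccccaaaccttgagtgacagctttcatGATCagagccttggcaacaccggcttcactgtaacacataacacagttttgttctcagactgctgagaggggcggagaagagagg

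The first stretch held 2 MboI sites and 14 CpGs, and the second held 1 MboI site and 4 CpGs beside a run of CA repeats. Across the whole anchors the ratio of observed to expected CpG was 0.256 and 0.182, near the median of 0.243 for the 3885 anchors away from TSSs. The promoter anchor of Irs2 had a ratio of 0.870 in part 1 and 0.697 in part 2, beside a median of 0.561 for anchors near a TSS. No anchor of an Irs2 loop, at either end, held the CTCF consensus. It was held by 15.05% of all anchors, 17.04% of those near a TSS and 8.42% of those away from TSSs. With shares this low and so few anchors, the lack of a match is no result about Irs2.

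One Irs2 contact appeared in both parts. In part 1 a loop of 1 tag ran 548.0 kb to chr8:11554113-11559271 (FDR 0.0328), and in part 2 a loop of 1 tag ran 548.9 kb to chr8:11554113-11558449 (FDR 0.0118). Both distal anchors lay at the promoter of Ing1, which encodes a reader of histone H3 lysine methylation. This was the sole loop of the 9 in part 1, and of the 8 in part 2, to overlap a loop of the other part at both anchors. Over the whole list 6.50% of loops in part 1 and 8.42% of loops in part 2 had such an overlap.

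The Ing1 promoter anchor was joined to those of Cars2 and Ankrd10 by more tags than any of these anchors to Irs2, over much shorter spans. No loop in the list joined the Cars2 promoter anchor to the Ankrd10 anchor. The Ing1 anchor of part 1 had 17 loops with 70 tags in all, and that of part 2 had 10 loops with 22 tags. The Ankrd10 and Cars2 promoter anchors had the same coordinates in both parts. Over both parts the Ankrd10 anchor had 11 loops with 33 tags and the Cars2 promoter anchor had 7 loops with 48 tags. Ing1 and Cars2 were joined by 33 tags in part 1 (span 6.54 kb) and by 10 tags in part 2, and Ing1 and Ankrd10 by 15 and 4 tags (79.3 and 79.7 kb). Loops of like span had medians of 13 and 5 tags for the first pair and 8 and 2 for the second. Each of these anchors gave 1 or 2 tags per loop to Irs2 over spans above 500 kb, where the medians were 1. The remaining loops of Irs2 had 1 tag each, and reached the Cars2 promoter, and upstream anchors over spans of 905 kb, 1421 kb (within Sox1ot) and 1742 kb, of which the last lay 5.98 kb from a TSS of Atp11a. Another upstream anchor, over a span of 639 kb, lay 7.95 kb from a TSS of Gm45592. Downstream they reached an anchor at Gm32540 (span 144 kb), the promoters of Gm44785 and Gm44786 (318 kb) and an anchor away from any TSS (342 kb).

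Counted over all distinct distal anchors, 10 of 17 lay within 2 kb of a TSS of another gene (58.8%, Wilson 95% interval 36.01 to 78.4). With the overlapping Ing1 anchors of both parts merged, a count made after the values were seen, it was 9 of 16 sites (56.2%, 33.2 to 76.9). The share over all looped promoters was 78.6%, just above these intervals, and anchors are not replicates, so no test was made. The 7 anchors away from TSSs all belonged to Irs2, for which they held 12 of its 19 tags.

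**Figure D3:**
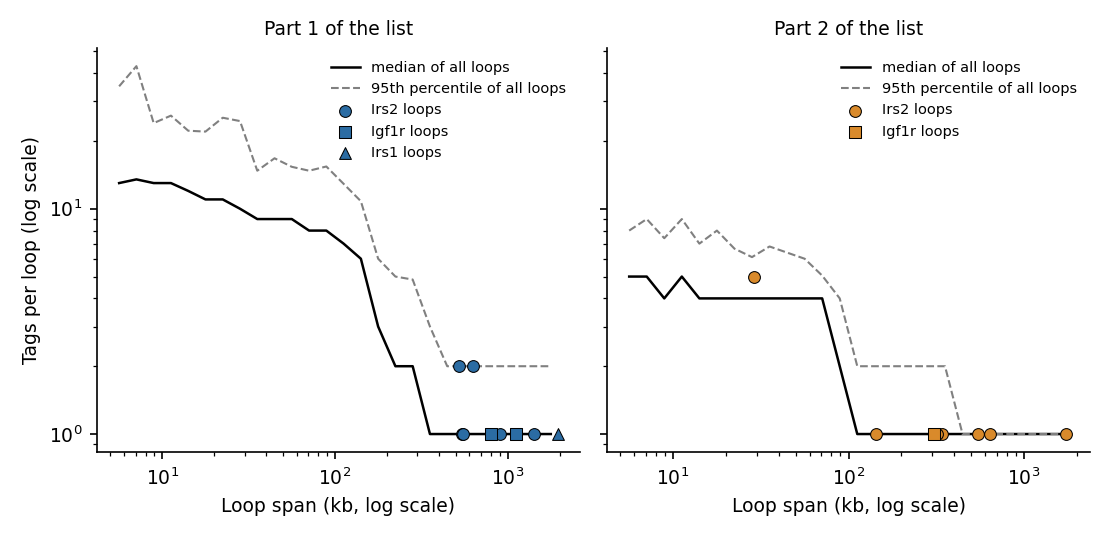
Tags of each loop of Irs2, Igf1r and Irs1 against its span in kb (both axes log scale), for each part of the list, over the median and the 95th percentile of all loops in bins of span with at least 20 loops. The Irs2 loop of 28.8 kb lies above the median of 4 tags for its span in part 2, and the longest loops mostly have the median of 1 tag.

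The binding protein genes Igfbp2, Igfbp4 and Igfbp5 had no loop in either part. Igfbp2 (chr1:72824503-72852474, plus strand) and Igfbp5 (chr1:72857932-72874884, minus strand) face each other with 5.46 kb between them, and the closest anchor to both, at the promoter of the ribosomal protein gene Rpl37a, lay 112 kb and 162 kb away. Each had 3 anchors within 500 kb and 1 loop passing over it. Igfbp4 (chr11:99041244-99054392, plus strand) lay in a far denser stretch. It had 39 anchors within 500 kb (percentile 91.5 of protein-coding genes), and 36 loops with 40 tags passed over it, beside a median of 5 loops for protein-coding genes. Its closest anchor, 16.3 kb away, was at the promoter of Top2a, which encodes a topoisomerase. The lack of an assigned loop at Igfbp4 thus stood beside many loops around it, whereas Igfbp2 and Igfbp5 lay where there were few.

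Every gene of the 9 could be cut by MboI near its TSSs. The windows of 2 kb around their TSSs held from 4 sites at Irs2 to 42 at Igf1r. Per kb the density ran from 1.00 at Irs2 to 2.49 at Igfbp2, beside a median of 2.36 for protein-coding genes, so the gene with the most loops had the fewest sites. The ratio of observed to expected CpG in the same windows was 0.883 at Irs2, 0.603 at Irs1 and 0.475 at Igf1r. It ran from 0.318 at Igf2r to 0.454 at Igfbp5 among the 6 genes without a loop. The groups did not overlap, but 0.475 at Igf1r lay close to 0.454 at Igfbp5. The windows pooled all TSSs of a gene and differed in size, from 4.001 kb at Irs1 and Irs2 to 21.6 kb at Igf1r. The promoter anchor of Igf1r alone had a ratio of 0.892 in part 1. Whether the groups stay apart in windows of equal size was not tested. Over protein-coding genes the median ratio in such windows was 0.368 with a loop and 0.226 without one. How far CpG content bears on the loops was not tested.

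**Figure D4:**
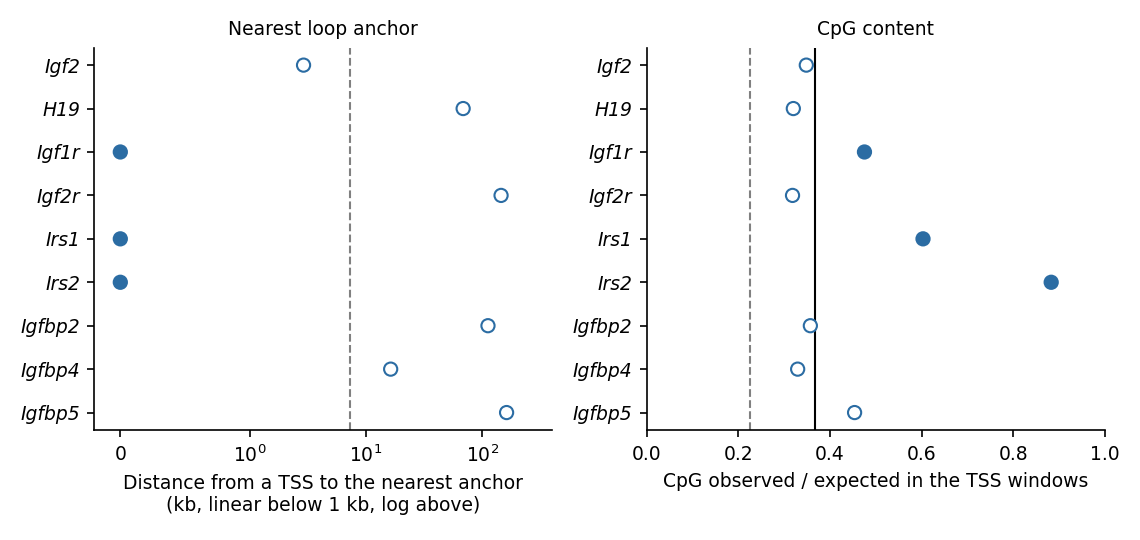
Distance in kb from a TSS of each gene to the nearest loop anchor (left, linear below 1 kb and log above, dashed line the median of 7.23 kb for protein-coding genes) and observed over expected CpG within 2 kb of its TSSs (right, medians of protein-coding genes with a loop as a solid line and without one as a dashed line). Filled points are the 3 genes with a loop, which have CpG ratios of 0.475 to 0.883, and open points are the 6 without, from 0.318 to 0.454. The windows of the CpG ratios differ in size between genes.

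Of 33 other genes of the pathway, 16 had a loop (48.5%, Wilson 95% interval 32.5 to 64.8), again close to the 45.8% of protein-coding genes. The largest loop scores were 49 tags at Shc1, an adaptor gene that links receptors to Ras, 22 at Foxo3, which encodes a transcription factor held out of the nucleus by AKT, and 9 at Akt1 itself. Shc1 had 19 loops and was the sole gene of the 33 with a loop of at least 4 tags, and Foxo3 had 13 loops, the same number as Irs2. Among all 42 genes Irs2 would stand between Foxo3 and Akt1. The receptor gene Insr had 5 loops with 8 tags, against 3 for its relative Igf1r.

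Sorted by role, a grouping made after the scores were known, so that it supports nothing and has no test, the loops of the 42 genes lay mostly at intracellular signaling genes. Of these, 13 of 16 had a loop, beside 45.8% of protein-coding genes, with a summed score of 132 tags of which 49 were at Shc1, and Irs4, Grb10 and Grb14 were the 3 without. Of the genes for secreted proteins (IGFs, insulins, binding proteins and their proteases or inhibitors), 1 of 16 had a loop, which was a single tag at Stc2. The 4 receptor genes included 2 with a loop and 11 tags in all, the group of 4 made of the Igf2bp genes, which encode binders of Igf2 mRNA, and the imprinted transcription factor gene Plagl1 included 3 with 10 tags, and the noncoding RNAs H19 and Igf2os had 0.

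**Figure D5:**
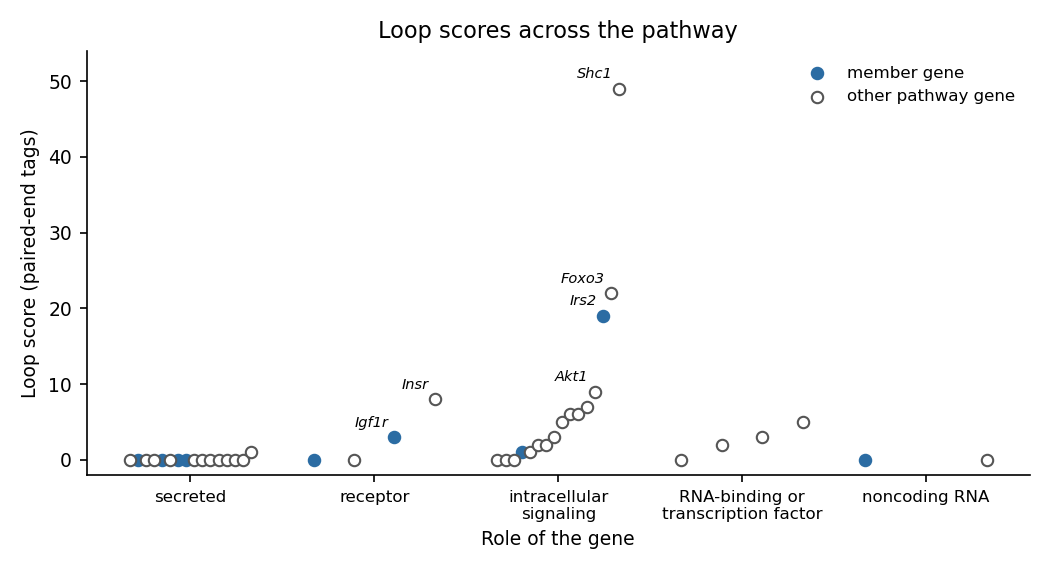
Loop score in paired-end tags of the 9 genes (filled) and the 33 other genes of the pathway (open), grouped by role on the horizontal axis and ordered by score within a role. Shc1 at 49, Foxo3 at 22 and Irs2 at 19 tags are the highest, and 15 of the 16 genes for secreted proteins are at 0.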

How the data were processed

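Chromatin from 2 tumors was assayed by H3K27ac HiChIP. Reads were aligned by the authors to mm10 (HiC-Pro 2.11.4), and hichipper 0.7.0 with its Mango statistics was used for loop calling. The deposited list gives an unnormalized count of paired-end tags per loop. The FDR beside it, a p-value that the authors' loop caller adjusted for multiple testing, was at most 0.05. The methods of the study name that threshold, whereas a supplementary legend names 0.01, at which 1 member, Irs2, keeps 4 tags. Other data of the study were not used here.

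Positions were converted to start at 1. TSSs were the first bases of all GENCODE vM21 transcripts, and an anchor was assigned when any base of it fell within 2 kb of one. Loops in both parts were summed. Sequences were read from GRCm38.p6, the assembly of mm10, with samtools 1.23.1. Intervals were computed with scipy 1.17.1 in Python 3.11.15. The assignment was tested on simulated data, where 606 loops planted at 300 promoters were all recovered. The 9 members, the marker and pathway lists and the alternatives were chosen with earlier results of these data known. The genes named were the members, the partners joined to each by the most tags or by a loop of at least 4 tags, and the 3 other pathway genes with the largest loop scores. Further partners, and genes given by role, were named after their values were seen.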

Additional observations from a re-analysis of the deposited data

How the results depend on the processing

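The number of genes with a loop, 3, stayed between 2 and 4 with windows of 1 or 5 kb, TSSs of protein-coding transcripts or of RefSeq, anchors resized to 4 kb, loops up to 1 Mb or either part of the list alone. Stricter loops changed it. With an FDR under 0.01 it was 1 gene with 4 tags, and with an FDR under 0.001 it was 0 genes with 0 tags. With at least 2 tags it was 1 gene with 9 tags and 33.3% of distal anchors near another TSS, and with at least 4 tags 1 gene with 5 tags and 0% of them. In each of these settings with a gene left, that gene was Irs2. The summed count of 23 tags was 11 in the first part alone and 12 in the second. Of 117 scores of single genes over 13 settings, 101 stayed within the counting interval of their main value. These included all 13 for each of the 6 genes at 0. Igf1r stayed in 9 of its 13, Irs1 in 7 and Irs2 in 7. The 0 of H19, Igf2r, Igfbp2, Igfbp4 and Igfbp5 did not move in any setting, but a setting that only removes loops could not move it. No paired analysis was possible because the list holds no value per tumor. Sparse tags are the main limit: with most loops at 1 tag and only called loops listed, a count of 0 is not absence of contact.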

Other observations

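Among the 16 looped genes of the wider pathway, Gab1, Pdpk1, Igf2bp1 and Igf2bp2 had loops in part 2 of the list alone, with 2, 1, 5 and 2 tags. Pik3ca and Stc2 had loops in part 1 alone, with 2 and 1 tags. The count of 5 tags at Igf2bp1, which encodes an RNA-binding protein of fetal tissues, was the largest of these. Over the whole list, 53.1% of looped protein-coding genes had loops in both parts, so a gene looped in 1 part alone was common. Igfbp6, Igfals and Igf2os had no loop, but had an anchor at 6.51, 6.75 and 9.57 kb from a TSS, as Igf2 did at 2.91 kb.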
